A study of Mus musculus with 40 samples.

Results

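The genes described are 41 that encode complement, coagulation and other plasma proteins, measured in the livers of 40 mice of the inbred strain C57BL/6J, all male. The members were chosen by gene symbol: every probe whose platform annotation carries a listed symbol was taken. This gave 59 probes of 39 genes, of 16593 genes with a probe in the whole series. C3, the central component of complement, and Cpb2, an inhibitor of fibrinolysis, were not analysed here. Of the 59 probes, 58 probes of 38 genes were detected, with a p-value below 0.01 on 4 or more of 34 arrays, and were tested. The remaining probe, the one for the fibrinogen beta chain Fgb, was detected on 0 of 34 arrays, with signals from 108 to 241.

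RNA was measured on Illumina mouse BeadChips, where beads carry probes that bind labelled RNA, with 1 array per sample. The header of the signal table gives each column a mouse number of its own. Mice arrived at 6 weeks, and from 5 months on each ate 1 of 2 diets. The first, named NIA, took 7.6% of its calories from sucrose, 17.7% from fat, and held 3.418 kcal per g. The second, named WIS, took 46% from sucrose, 24.4% from fat, and held 3.927 kcal per g. Under each diet, mice were fed ad libitum (AL), kept on caloric restriction (CR) by 30%, or meal-fed (MF). CR and MF mice received a single portion a day at 3 pm, fixed in size from 14 months of age. MF-NIA mice ate as many calories as AL-WIS and MF-WIS mice, and AL-NIA mice ate the most. Restricted mice took their food from the floor and all others from a hopper, so that the place of feeding and restriction cannot be told apart. On the NIA diet there were 9 CR, 6 MF and 5 AL arrays, and on the WIS diet 10 CR, 4 MF and 6 AL arrays. The labels used here give neither the age nor the hour at which livers were taken.

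Hepatocytes make most of the proteins of blood plasma and release them through the secretory pathway. In the lectin and alternative pathways of complement, recognition proteins and serine proteases activate C3, and the terminal components then assemble a pore in the target membrane. In coagulation, factor VII with tissue factor starts a chain of serine protease steps, the contact factors XII and XI can feed the same chain, and thrombin turns fibrinogen into fibrin. Protein C, protein S and antithrombin restrain the chain, and plasmin, cut from plasminogen, dissolves the clot. Many of these genes are acute-phase genes, whose transcription in hepatocytes rises or falls in inflammation, and several are driven by the liver factors HNF1, HNF4 and C/EBP.

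Levels are given in log2 units. The deposited score of each probe, which has mean 0 and SD 1 on each array, was multiplied by 1.51, the median SD of the log2 signals. A level of 0 is thus the mean of all probes on that array, and levels can be compared between groups for 1 probe but not between probes. Folds are taken from these rescaled scores, with 1 factor for all arrays, and are not ratios of measured intensities. A probe was called where limma's Benjamini-Hochberg adjusted p over 10659 probes was under 0.05. A second deposited table holds signal intensities for 34 of the arrays used here, with 8 columns for CR-NIA, 6 for MF-NIA, 6 for AL-WIS, 10 for CR-WIS and 4 for MF-WIS. On these, 8725 to 11199 of 25697 probes were detected and the median signal ran from 134 to 276. Intensities are printed as deposited, without normalization. Over the 58 member probes, the median raw log2 difference was -0.50 for CR-NIA against MF-NIA. The number of arrays limits the precision, and fewer hepatocytes and less RNA per hepatocyte cannot be told apart in whole liver. Of 20 tested probes for other hepatocyte genes, 20 were detected on all 34 arrays.

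Libraries treated here as standing apart from their groups numbered 3, chosen after seeing the data. The mean deviation of 22 macrophage marker probes was 3.37 log2 units in AL-WIS replicate 1 against -0.22 to 1.02 in the other AL-WIS livers, and that of 20 hepatocyte probes was -1.73 against -0.09 to 0.12. The mean deviation of the 58 member probes was -0.96 in that library against -0.19 to 0.24 in its group. CR-NIA replicate 1 matched none of the CR-NIA signal columns within a score difference of 0.01, while the other 34 libraries with usable columns matched a column of their group. The signal table holds 8 CR-NIA and 6 AL-NIA columns against 9 and 5 samples so labelled, so this library may belong to another group than its label gives. It is named by its label throughout and counts among the 9 CR-NIA livers. Without it 15 member probes were called for CR-NIA against MF-NIA, with F2 entering and the Itih4 probe ILMN_2718431 leaving. The share of all probes called in that fit is not given here. In MF-WIS replicate 4 the mean deviation of 3 cholangiocyte probes was 1.07 against -0.17 to 0.28 in its group, and that of 18 endothelial probes -0.78 against -0.09 to 0.15. Results that rest on these 3 libraries are given with and without them. In MF-NIA the highest mean deviation was 1.82 for 8 neutrophil probes (group median -0.22) and 2.35 for 4 erythroid probes (group median 0.05). No MF-NIA library was counted among the 3.

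Over the 9 comparisons of regimens and diets, 13 of the 38 tested genes (34.2%) had a called probe in at least 1 comparison and 25 in none, beside 39.3% of all 7958 tested genes. Without the 3 libraries that stood apart, 27 members (71.1%) had one and 11 had none, beside 54.2% of all tested genes, so that the number of members called depends on those libraries. The range of the 6 group means had a median of 0.54 over the 58 probes, against a median SD within groups of 0.36. The highest SD within groups was that of a probe for C6, a terminal complement component, at 0.69, and the lowest that of the probe for Masp1, a lectin pathway protease, at 0.23. With all libraries, protein C (Proc) was called in 3 comparisons, and F7, F11, F12 and Hrg in 2 each.

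**Figure D1:**
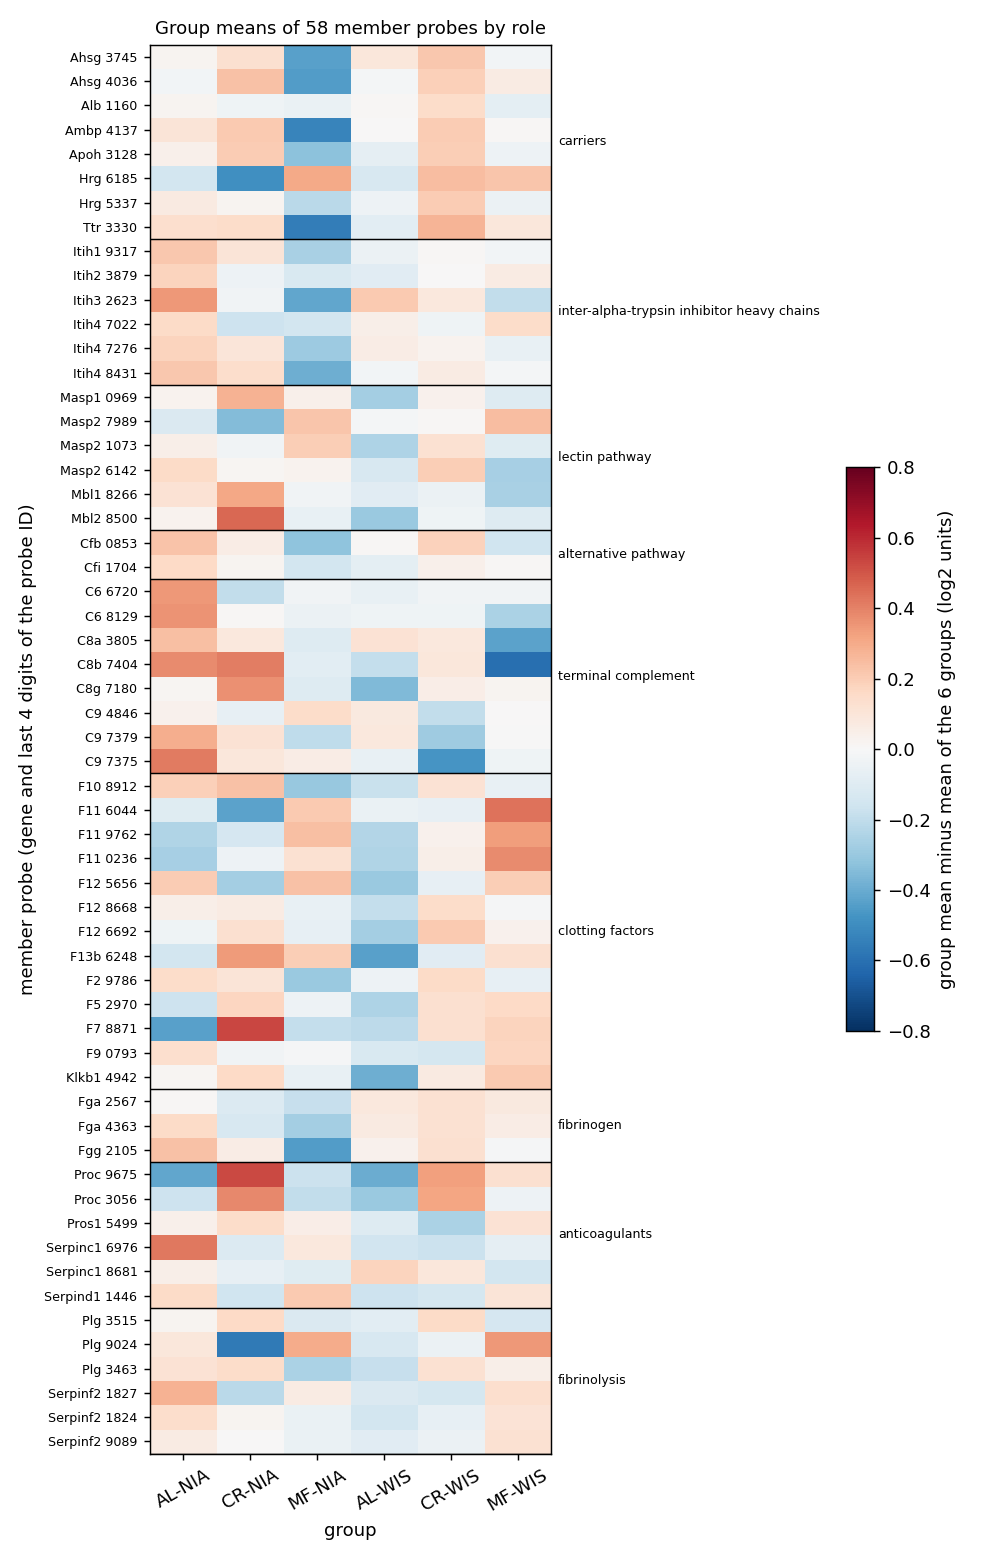
Group mean of each of the 58 tested member probes minus the mean of its 6 group means, in log2 units, with probes in rows ordered by role and groups in columns. Carriers such as Ahsg, Ambp and Ttr sit low in MF-NIA, F7 and Proc sit high in CR-NIA, and the 3 F11 probes sit high in MF-WIS; the median range across the 6 means is 0.54.

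CR-NIA against MF-NIA compares 2 groups that ate the same diet in 1 daily portion and differed in the amount and in the place of feeding. On the scores, 10 of the 58 member probes were higher and 5 lower in CR-NIA, which is 25.9% of the member probes, while 18.8% of all tested probes were called. By direction, 5.57% of all probes were called higher and 13.3% lower. The higher probes were those of the initiator of clotting F7, of F10, of the anticoagulant protease Proc (2 probes), and of the abundant carriers and inhibitors Ahsg (2 probes), Ambp, Apoh, Ttr and Itih4. The lower probes were those of F11, F12, the heparin- and plasminogen-binding glycoprotein Hrg, the plasmin precursor Plg and the lectin pathway protease Masp2. The median difference was 0.18 over the member probes and -0.07 over all tested probes. Without the 3 libraries that stood apart, 20 member probes were higher and 6 lower, beside 32.1% of all probes called. Without MF-NIA replicate 3, CR-NIA replicate 5 or MF-NIA replicate 2, 7, 8 and 9 member probes were called in turn. The shares of all probes called in those last fits are not given here.

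F7 encodes factor VII, a vitamin K-dependent protease that starts clotting together with tissue factor. Its level (probe ILMN_2708871) ran from 0.97 to 2.13 with a median of 1.81 in the 9 CR-NIA livers, and from 0.53 to 1.39 with a median of 1.02 in the 6 MF-NIA livers. The groups overlapped through 1 CR-NIA liver, and 8 of 9 lay above every MF-NIA liver. F7 was higher by 0.72 ± 0.17 (SE), or 1.65-fold (limma's adjusted p = 0.00290). Without CR-NIA replicate 1 it was higher by 0.82 ± 0.16 (adjusted p = 0.000287). In the signal table its intensity was 604 to 1368 in CR-NIA and 551 to 918 in MF-NIA, and after quantile normalization it was higher by 0.94 ± 0.18 (adjusted p = 0.000420).

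Proc encodes protein C, which as an activated protease inactivates factors V and VIII. Its probe ILMN_3109675 ran from 2.72 to 4.03 with a median of 3.62 in CR-NIA and from 2.42 to 3.05 with a median of 2.82 in MF-NIA. Of the 9 CR-NIA livers, 7 lay above all MF-NIA livers. The difference was 0.70 ± 0.20, or 1.63-fold (limma's adjusted p = 0.00976), and 0.74 ± 0.20 on the quantile-normalized signals (adjusted p = 0.00906). Without CR-NIA replicate 1 the difference on the scores was 0.80 ± 0.19 (adjusted p = 0.00199). The other Proc probe, ILMN_2653056, differed by 0.58 ± 0.19 (adjusted p = 0.0259) on the scores, with 8 of 9 CR-NIA livers above the MF-NIA group. On the quantile-normalized signals the same probe differed by 0.39 ± 0.16 and missed the threshold (adjusted p = 0.0893).

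Ahsg encodes fetuin-A, a carrier that binds calcium phosphate in plasma and a negative acute-phase protein in humans. Probe ILMN_2764036 ran from 6.91 to 8.11 with a median of 7.14 in CR-NIA and from 6.08 to 7.22 with a median of 6.79 in MF-NIA. The groups overlapped, with 4 of 9 CR-NIA livers above all MF-NIA livers. It was higher by 0.68 ± 0.20 on the scores (limma's adjusted p = 0.0121) and by 0.26 ± 0.08 on the quantile-normalized signals (adjusted p = 0.0166). Its raw intensity was not higher in CR-NIA: 32879 to 51239 there and 35874 to 51301 in MF-NIA. The call on the scores ended without MF-NIA replicate 3 (adjusted p = 0.0546).

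F11 encodes factor XI, a contact-phase protease that activates factor IX. Probe ILMN_1236044 ran from -0.82 to -0.21 with a median of -0.54 in CR-NIA and from -0.17 to 0.41 with a median of 0.09 in MF-NIA. The groups did not overlap, and the difference was -0.64 ± 0.13 (limma's adjusted p = 0.000464). This probe is dim: it was detected on 2 of 8 CR-NIA columns and on 6 of 6 MF-NIA columns, with intensities of 140 to 243 and 247 to 659, so that no exact fold can be given. The brighter F11 probes ILMN_2609762 and ILMN_3000236 differed by -0.37 ± 0.18 and -0.16 ± 0.17 and did not pass (adjusted p = 0.161 and 0.571).

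Hrg encodes histidine-rich glycoprotein. Probe ILMN_2656185 ran from 0.59 to 1.72 with a median of 0.85 in CR-NIA and from 1.40 to 2.05 with a median of 1.90 in MF-NIA. Of the 9 CR-NIA livers, 7 lay below all MF-NIA livers. It was lower by -0.80 ± 0.19, a 1.74-fold difference (limma's adjusted p = 0.00252), and by -0.72 ± 0.20 on the quantile-normalized signals (adjusted p = 0.0108). Its raw intensity was 361 to 713 against 948 to 1682. Without CR-NIA replicate 1 the difference on the scores was -0.88 ± 0.18 (adjusted p = 0.000494). The other Hrg probe, ILMN_2815337, had a difference of 0.24 ± 0.14 with the opposite sign (adjusted p = 0.268).

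Plg encodes plasminogen and is represented by 3 probes. Probe ILMN_2589024 ran from 2.46 to 4.39 with a median of 3.26 in CR-NIA and from 3.68 to 4.56 with a median of 4.17 in MF-NIA, with 8 of 9 CR-NIA livers below the whole MF-NIA group. It was lower by -0.86 ± 0.27 (limma's adjusted p = 0.0221), and its intensity was 984 to 3655 against 5849 to 7965, without overlap. The call ended without CR-NIA replicate 5 or MF-NIA replicate 1, 4 or 6, with adjusted p up to 0.0608. The other Plg probes, ILMN_2593515 and ILMN_2933463, had differences of 0.28 ± 0.14 and 0.40 ± 0.19 and did not pass (adjusted p = 0.174 and 0.138).

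**Figure D2:**
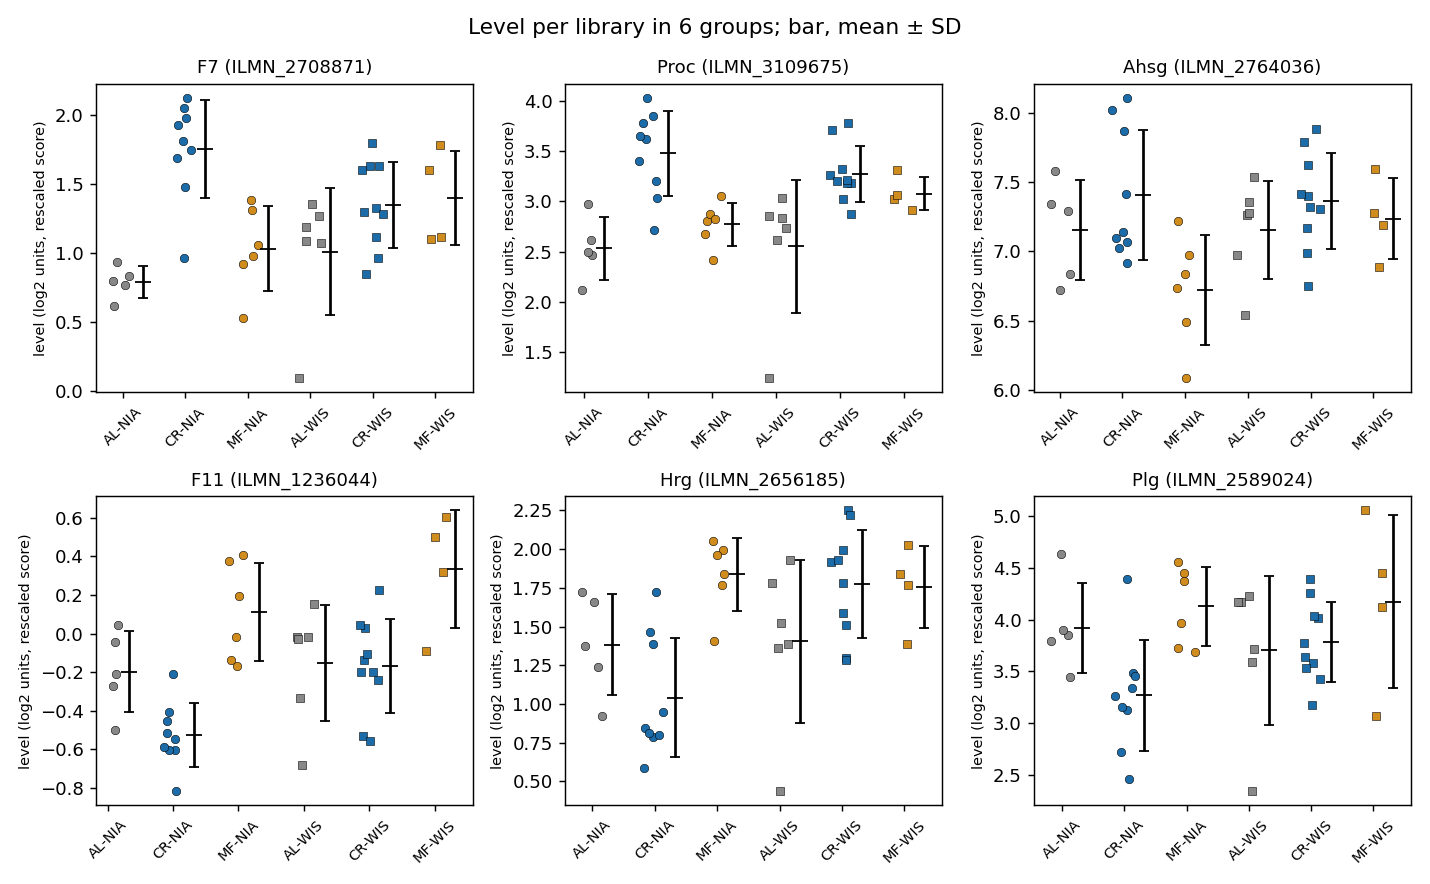
Level in log2 units (vertical axis) of 1 probe each for F7, Proc, Ahsg, F11, Hrg and Plg in the 6 groups (horizontal axis), 1 point per library, circles for NIA and squares for WIS, with the group mean ± SD beside the points. CR-NIA lies high for F7 and Proc and low for F11, Hrg and Plg, and the low AL-WIS point in the F7 panel is replicate 1 at 0.091.

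Among the other coagulation members, F10, the protease that forms thrombin from prothrombin, was higher in CR-NIA by 0.54 ± 0.17 (limma's adjusted p = 0.0224). It ran from 5.39 to 6.42 there and from 4.86 to 5.84 in MF-NIA, and on the quantile-normalized signals it differed by 0.28 ± 0.12 (adjusted p = 0.0959). On the scores the F10 call ended without CR-NIA replicate 5 or MF-NIA replicate 2 or 3, with adjusted p up to 0.0795. F12 encodes the contact factor XII, and its dimmest probe ILMN_2605656 was lower by -0.51 ± 0.16 (adjusted p = 0.0228), with 6 of 9 CR-NIA livers below all MF-NIA livers. This call ended without MF-NIA replicate 1, 4 or 6, with adjusted p up to 0.0580. The other F12 probes, ILMN_2746692 and ILMN_2938668, had differences of 0.20 ± 0.14 and 0.13 ± 0.12 (adjusted p = 0.371 and 0.522). Prothrombin itself, F2, ran from 5.78 to 6.61 against 5.53 to 6.11 and missed the threshold at 0.40 ± 0.15 (adjusted p = 0.0504). It passed without CR-NIA replicate 1 (adjusted p = 0.0424) and without the 3 libraries that stood apart, at 0.41 ± 0.13 (adjusted p = 0.0108). Without the 3, F5 and Klkb1 were also called higher, by 0.31 ± 0.12 and 0.27 ± 0.10 (adjusted p = 0.0379 and 0.0343). The called F11 and F12 probes stayed lower there, and 32.1% of all probes were called. With all libraries, 2 of the 13 clotting factor probes were thus higher and 2 lower on the scores, and 1 higher and 2 lower on the quantile-normalized signals. Over all tested probes, 5.57% were higher and 13.3% lower on the scores, and 10.3% and 9.38% on those signals.

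With all libraries, complement members were called in 1 of 16 probes on the scores, beside 18.8% of all tested probes. Masp2 cleaves C4 and C2 in the lectin pathway, and its dimmest probe ILMN_3027989 ran from -0.14 to 0.51 in CR-NIA and from 0.62 to 1.03 in MF-NIA, without overlap. It was lower by -0.57 ± 0.17 (limma's adjusted p = 0.0149) on the scores and by -0.43 ± 0.18 on the quantile-normalized signals (adjusted p = 0.0893). The other Masp2 probes differed by -0.01 ± 0.19 and -0.23 ± 0.21. The mannose-binding lectins Mbl1 and Mbl2, which start the lectin pathway, had differences of 0.34 ± 0.19 and 0.52 ± 0.24, and factor B (Cfb) of the alternative pathway 0.38 ± 0.14 (adjusted p = 0.0565). With all libraries none of the 8 terminal complement probes passed, their differences running from -0.21 to 0.49. Without the 3 libraries that stood apart, Mbl1, Mbl2, Masp1, Cfb and the terminal component C8g were called higher, beside 32.1% of all probes called. Their differences then ran from 0.27 to 0.62 (adjusted p up to 0.0388), and the Masp2 probe ILMN_3027989 stayed lower at -0.61 ± 0.10. Without AL-WIS replicate 1 alone, Mbl1, Mbl2, Cfb and C8g were called higher. The share of all probes called in that fit is not given here.

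Among the carriers, 5 of 8 probes were higher and 1 lower on the scores, beside 5.57% and 13.3% of all tested probes. The 5 higher probes all had a median intensity above 20000, a range where 40.5% of all probes were called higher. Ambp, the precursor of alpha-1-microglobulin and bikunin, ran from 6.96 to 8.53 in CR-NIA and from 6.17 to 7.41 in MF-NIA, a difference of 0.74 ± 0.23 (limma's adjusted p = 0.0177). On the quantile-normalized signals its difference was 0.10 ± 0.06 (adjusted p = 0.257), and on the scores its call ended without MF-NIA replicate 2 or 3 (adjusted p up to 0.0776). Apoh (beta-2-glycoprotein I), Ttr (transthyretin, which carries thyroxine and retinol-binding protein) and 1 of 3 probes for Itih4, an inter-alpha-trypsin inhibitor heavy chain, were higher by 0.53 ± 0.18, 0.70 ± 0.25 and 0.53 ± 0.19 on the scores. On the quantile-normalized signals these 3 had differences of 0.20 ± 0.13, 0.16 ± 0.10 and -0.09 ± 0.11, and did not pass. The single albumin probe, Alb, differed by 0.019 ± 0.13. That probe was detected on 29 of 34 arrays at a median intensity of 264, while albumin mRNA is known as one of the most abundant of hepatocytes.

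Fibrinogen genes, which encode the chains of the clot protein, differed between the tables. On the scores the 2 probes for Fga had differences of 0.08 ± 0.21 and 0.14 ± 0.20, and that for Fgg 0.51 ± 0.21 (adjusted p = 0.0835). On the quantile-normalized signals both Fga probes were lower in CR-NIA, by -0.52 ± 0.12 and -0.51 ± 0.11 (limma's adjusted p = 0.00284 and 0.00173), while Fgg differed by 0.14 ± 0.12. The raw intensity of Fga probe ILMN_1232567 was 21662 to 45668 in CR-NIA and 41512 to 56975 in MF-NIA.

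Both tables were compared over all 58 probes for this pair of groups. On the quantile-normalized log2 signals 3 member probes were higher and 7 lower, beside 19.7% of all tested probes called (10.3% higher and 9.38% lower). On median-centred log2 signals 4 were higher and 9 lower, beside 23% of all probes (1.96% higher and 21.1% lower). The probes of F7, Proc (ILMN_3109675) and Ahsg (ILMN_2764036) were higher, and those of F11, Hrg, Plg and F12 lower, under all 3 scalings, which makes 7 probes. No probe was called in opposite directions. The sign of 11 probes changed between the scores and the quantile-normalized signals, and 21 between the scores and the median-centred signals. The median member difference was 0.18, 0.04 and -0.09 in turn, and that of all tested probes -0.07, 0.01 and -0.16. The share of higher among the called member probes was 66.7% on the scores and 30% on the quantile-normalized signals; over all called probes it was 29.6% and 52.3%, and 8.51% on the median-centred signals.

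**Figure D3:**
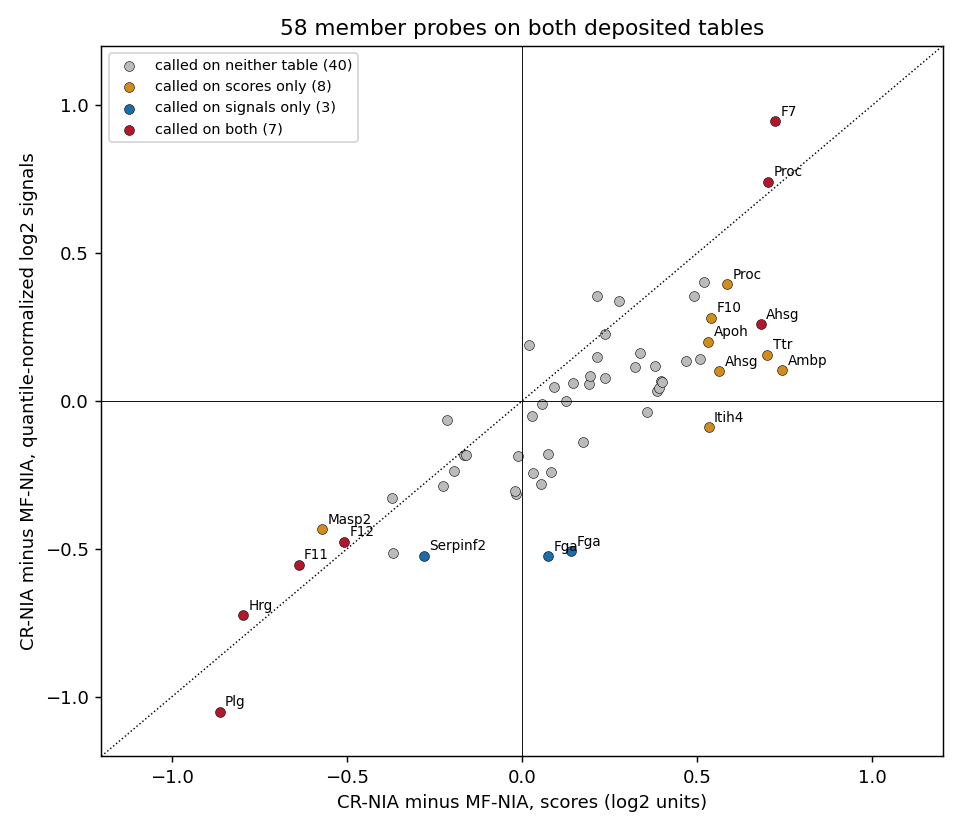
Difference CR-NIA minus MF-NIA of the 58 member probes on the scores (horizontal axis) and on the quantile-normalized log2 signals (vertical axis), both in log2 units, coloured by whether each table calls the probe; the dotted line marks equality. The 7 probes called on both lie at the ends of the plot, 8 called on the scores alone lie mostly at the right and below the line, and 3 called on the signals alone lie below 0.

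The difference on the scores moved with the brightness of the probe. Over all tested probes its median was -0.10 for a median intensity below 1000, -0.00084 from 1000 to 5000, 0.22 from 5000 to 20000 and 0.50 above 20000. For the member probes in the same ranges it was -0.21, 0.091, 0.20 and 0.53. On the median-centred signals the medians over all probes were -0.15, -0.20, -0.09 and 0.072. Quantile normalization gives every array the same distribution, which by construction holds such medians near 0. Of the 10 higher calls among the members, 6 lay above 20000, a range that holds 11 member probes and in which 40.5% of all probes were called higher. The SD of the log2 signals on an array was 1.48 ± 0.07 (SD, n = 8) in CR-NIA and 1.57 ± 0.06 (SD, n = 6) in MF-NIA, and the median intensity 135 to 199 against 170 to 276. The scores divide by that SD. The brightest probe of an array read 38637 to 61745. The part of the array SD and of the top of the intensity range in the higher calls was not tested.

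**Figure D4:**
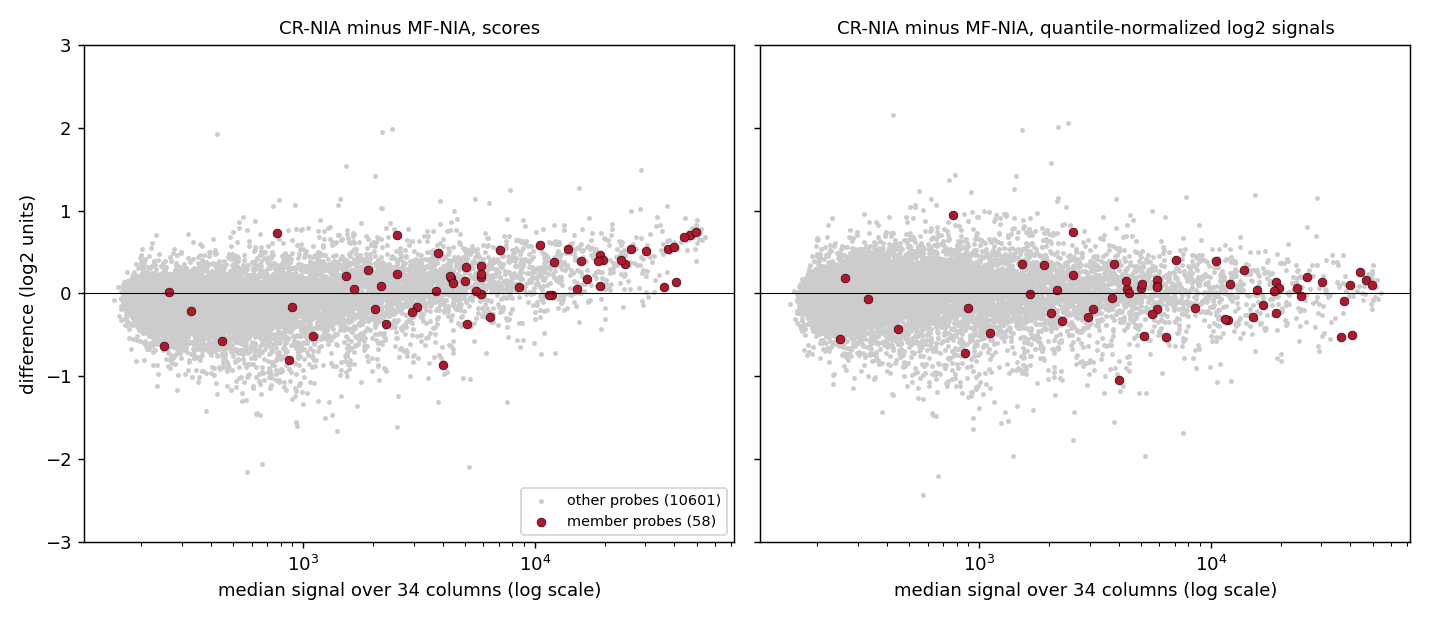
Difference CR-NIA minus MF-NIA (vertical axis, log2 units) against the median intensity over 34 columns (horizontal axis, log scale) on the scores (left) and on the quantile-normalized log2 signals (right), for the 58 member probes in red and 10601 other tested probes in grey. On the left the cloud rises with intensity, to a median of 0.50 above 20000, and on the right, where normalization gives every array the same distribution, it is held near 0.

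For 13 members 2 or 3 probes were tested, and for 8 of them the probes disagreed in sign on the scores, for 5 on the quantile-normalized signals. Plg spanned -0.86 to 0.40, Hrg -0.80 to 0.24 and F12 -0.51 to 0.20, and in all 3 genes the called, lower probe was one for which a brighter probe had a positive difference. F11 and Masp2 kept a negative sign over 3 probes each, and in both the dimmest probe was the called one. Proc and Ahsg were called higher on both of their probes. With the brightest probe alone for each gene, 7 members were higher and 0 lower by limma, so that the 5 lower calls all rested on a probe that was not the brightest of its gene. The share of all genes called in that fit is not given here. The probe annotation used here does not give the transcripts that each probe meets.

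**Figure D5:**
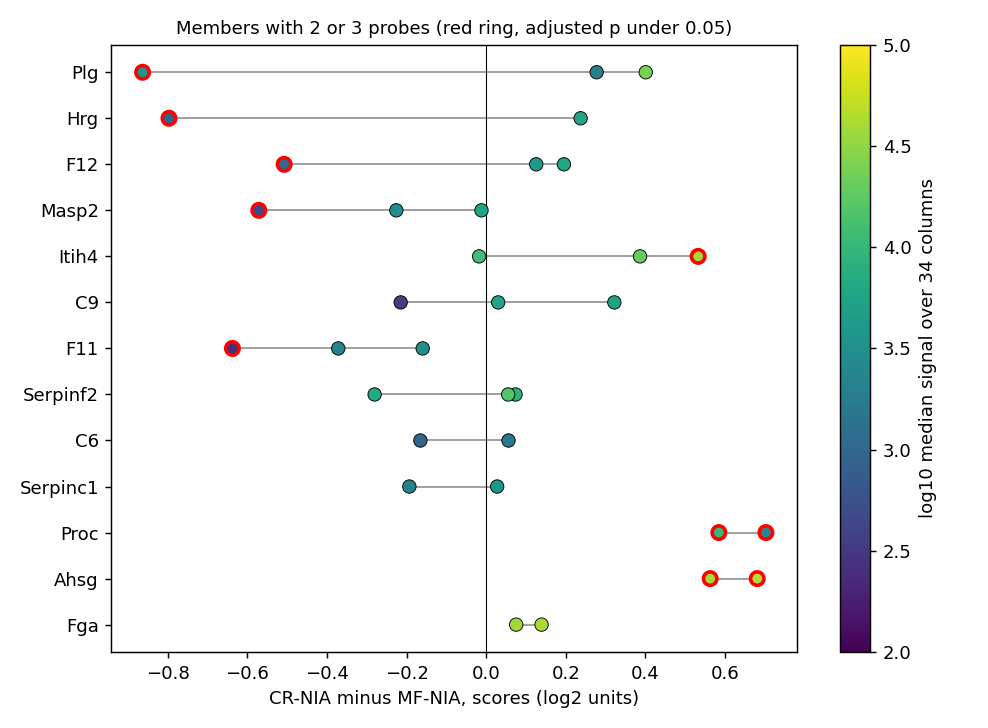
Difference CR-NIA minus MF-NIA on the scores (horizontal axis, log2 units) of each probe of the 13 members with 2 or 3 tested probes (rows), coloured by log10 median intensity, with a red ring where the adjusted p was under 0.05. Plg runs from -0.86 to 0.40 and Hrg from -0.80 to 0.24, while both probes of Proc and of Ahsg lie above 0.5.

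The start regions of the members are shown to let the letters be read beside these differences, for 2 genes with a higher and 2 with a lower probe under all 3 scalings, and for Alb, whose promoter is a textbook case of liver transcription. In the RefSeq table (GRCm38.p6) 35 member genes have a window of 250 bases before and 50 after the start of the gene. The core element of HNF1, GTTAAT, lay on either strand in the windows of 8 of the 35 members (Alb, Itih1, C8a, C8b, F2, F13b, Fga and Fgb), or 22.9%, and of 8.24% of 27025 genes. The D-box TTATGTAA, the element of the daily factors Dbp and Tef, lay in 1 member window, that of Alb, and in 1.11% of all. The C/EBP palindrome TTGCGCAA and the HNF4 element CAAAGTCCA lay in 0 member windows, and in 0.207% and 0.555% of all. Both strands were searched, the 3 matches in the Alb sequence do not overlap, and a match is a description of the letters. The 250 bases before the start are printed 5′ to 3′, with the HNF1 element and the D-boxes in capitals.
F7, chr8:13025784-13026033, plus strand: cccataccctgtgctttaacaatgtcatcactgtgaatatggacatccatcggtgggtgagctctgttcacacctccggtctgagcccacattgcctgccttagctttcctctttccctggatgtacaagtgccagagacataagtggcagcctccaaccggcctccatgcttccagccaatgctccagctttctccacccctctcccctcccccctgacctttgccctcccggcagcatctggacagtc
Ahsg, chr16:22891765-22892014, plus strand: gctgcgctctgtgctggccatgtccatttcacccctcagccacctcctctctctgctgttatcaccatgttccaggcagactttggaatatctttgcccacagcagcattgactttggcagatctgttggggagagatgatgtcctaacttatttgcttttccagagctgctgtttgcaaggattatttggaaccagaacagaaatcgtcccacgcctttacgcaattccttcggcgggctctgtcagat
F11, chr8:45262032-45262281, minus strand: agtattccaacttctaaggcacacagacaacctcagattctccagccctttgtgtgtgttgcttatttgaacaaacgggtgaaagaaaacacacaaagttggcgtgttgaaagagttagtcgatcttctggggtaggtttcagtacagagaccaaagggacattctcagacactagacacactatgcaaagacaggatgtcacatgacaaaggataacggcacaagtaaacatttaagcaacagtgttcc
Hrg, chr16:22950822-22951071, plus strand: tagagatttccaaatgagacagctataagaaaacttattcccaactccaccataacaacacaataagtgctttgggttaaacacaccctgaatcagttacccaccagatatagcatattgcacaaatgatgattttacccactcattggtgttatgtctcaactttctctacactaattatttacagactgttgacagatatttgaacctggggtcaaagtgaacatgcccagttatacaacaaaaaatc
Alb, chr5:90460620-90460869, plus strand: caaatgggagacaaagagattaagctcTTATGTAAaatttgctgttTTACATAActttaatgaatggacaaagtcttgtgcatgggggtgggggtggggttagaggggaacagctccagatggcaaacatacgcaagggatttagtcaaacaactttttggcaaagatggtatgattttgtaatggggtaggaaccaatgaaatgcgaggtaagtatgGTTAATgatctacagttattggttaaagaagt

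The windows of F7, Ahsg, F11 and Hrg thus held 0 matches to the 4 motifs, and that of Alb held 3 in the printed bases. Among the genes with a called probe on either table for this pair of groups, Fga had the HNF1 element.

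Against ad libitum feeding on the NIA diet, the restricted livers differed in F7 and Proc. Of the 58 probes 2 were higher and 0 lower in CR-NIA than in AL-NIA, or 3.45%, beside 11.6% of all tested probes (4.63% higher and 6.95% lower). An unadjusted p under 0.05 was found for 9 of them and for 2839 of the 10659 tested probes. The F7 levels of the AL-NIA livers were 0.80, 0.94, 0.83, 0.77 and 0.62, all below the lowest CR-NIA liver at 0.97. F7 was higher by 0.96 ± 0.18, or 1.95-fold (limma's adjusted p = 0.000943). The Proc levels (ILMN_3109675) of the AL-NIA livers were 2.46, 2.97, 2.49, 2.61 and 2.11, and 8 of 9 CR-NIA livers lay above them. Proc was higher by 0.95 ± 0.21, or 1.93-fold (adjusted p = 0.00297), and its other probe by 0.55 ± 0.20 without passing (adjusted p = 0.0661). This comparison shares the CR-NIA livers with the one above. Without the 3 libraries that stood apart, 15 member probes were called, 8 higher and 7 lower, beside 27.4% of all. Without CR-NIA replicate 1 alone 8 were called, and without AL-WIS replicate 1, which enters only the shared estimate of the spread, 9 were. The shares of all probes called in the fits without 1 library are not given here. Without CR-NIA replicate 1, F7 and Proc (ILMN_3109675) were higher by 1.06 ± 0.17 and 1.04 ± 0.20.

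On the WIS diet 3 of 58 probes, or 5.17%, were higher in CR-WIS than in AL-WIS and 0 lower, beside 13.1% of all tested probes (6.29% higher and 6.76% lower). These were both probes of Proc and the F12 probe ILMN_2746692. The Proc probe ILMN_3109675 ran from 2.87 to 3.77 with a median of 3.21 in the 10 CR-WIS livers and from 1.24 to 3.03 with a median of 2.79 in the 6 AL-WIS livers, where replicate 1 was the lowest. It was higher by 0.72 ± 0.19 (limma's adjusted p = 0.0139), the other Proc probe by 0.61 ± 0.19 (adjusted p = 0.0277) and F12 by 0.48 ± 0.14 (adjusted p = 0.0230). Without AL-WIS replicate 1, 0 of the 58 probes were called by limma, 11 had an unadjusted p under 0.05, and the 3 differences were 0.46, 0.31 and 0.31 (adjusted p = 0.0764, 0.153 and 0.128). The shares of all probes in that fit are not given here, so a move of the members cannot be told from a move of all probes. Proc (ILMN_3109675) was the 1 called member probe without the 3 libraries, at 0.46 ± 0.14 (adjusted p = 0.0370), beside 8.81% of all. In the same comparison 18 of 22 macrophage probes were lower in CR-WIS, with a median of -1.25, and 2 of 20 hepatocyte probes higher, with a median of 0.37. The mean deviation of the macrophage probes ran from -0.22 to 3.37 in AL-WIS and from -0.67 to 0.65 in CR-WIS. The count of lower macrophage probes without the 3 libraries was 7, with a median of -0.63. The part of these cells in the differences of Proc and F12 was not tested.

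CR-WIS against MF-WIS gave 1 called member probe of 58, or 1.72%, beside 3.34% of all (1.25% higher and 2.09% lower). The F11 probe ILMN_1236044 stood at 0.60, -0.09, 0.50 and 0.32 in the 4 MF-WIS livers and ran from -0.56 to 0.23 with a median of -0.17 in CR-WIS. The groups overlapped, and the difference was -0.50 ± 0.14 (limma's adjusted p = 0.0417). The call ended without any 1 of CR-WIS replicates 1, 2, 4, 5, 8, 9 and 10 and MF-WIS replicates 1, 3 and 4, with adjusted p up to 0.163, and over all 40 fits with 1 library left out the difference ran from -0.64 to -0.41. Leaving out the 3 libraries, 2 member probes were lower, beside 5.14% of all: F11 at -0.50 ± 0.15 (adjusted p = 0.0390) and the Masp2 probe ILMN_3027989 at -0.61 ± 0.12 (adjusted p = 0.00424). With all libraries this Masp2 probe had means of 0.60 in CR-WIS and 0.83 in MF-WIS, where replicate 4 stood at -0.30. The Masp2 probe ILMN_1216142 had means of 4.50 and 4.03, the opposite sign. Without AL-WIS replicate 1 alone it was called higher in CR-WIS, at 0.46 ± 0.14 (adjusted p = 0.0451). The other F11 probes had differences of -0.30 ± 0.21 and -0.33 ± 0.19. F7, called higher under restriction on the NIA diet, stood at 1.10, 1.12, 1.78 and 1.60 in MF-WIS and from 0.85 to 1.80 in CR-WIS, a difference of -0.05 ± 0.19 (adjusted p = 0.926).

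The difference between the diets in this contrast was tested itself. No member probe passed in the interaction of diet with CR against MF, beside 0% of all probes. An unadjusted p under 0.05 was found for 3 member probes and for 973 of the 10659 tested probes. F7 had an interaction of -0.77 ± 0.26 (limma's adjusted p = 0.359) and Hrg of 0.82 ± 0.28 (adjusted p = 0.359), WIS minus NIA. In the interaction with CR against AL 0 member probes passed, beside 0.0281% of all. Of all tested probes 1159 had an unadjusted p under 0.05, and of the members 3. The smallest was that of the F12 probe ILMN_2605656 at 0.71 ± 0.23 (adjusted p = 0.248). Without the 3 libraries 2 member probes passed in this second interaction, beside 2.04% of all.

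Between the diets, Hrg was called among the restricted livers. Of the 58 probes 1 was higher in CR-WIS than in CR-NIA, or 1.72%, beside 3.26% of all (2.07% higher and 1.19% lower). Hrg (ILMN_2656185) ran from 1.28 to 2.25 with a median of 1.85 in CR-WIS, and 6 of 10 livers lay above all CR-NIA livers. It was higher by 0.74 ± 0.16, or 1.67-fold (limma's adjusted p = 0.00864). The Hrg levels of the AL-NIA livers, 1.72, 1.66, 1.37, 1.24 and 0.92, overlapped both groups, as did those of AL-WIS, from 0.44 to 1.93. Its other probe differed by 0.18 ± 0.13 (adjusted p = 0.491). Without the 3 libraries 10 member probes were called here, 4 higher and 6 lower, beside 12.3% of all.

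The remaining comparisons called 0 of the 58 probes with limma over all libraries. MF-NIA against AL-NIA had 15 with an unadjusted p under 0.05, beside 1876 of the 10659 tested probes. There 1.9% of all probes were called, and the member median was -0.17 against 0.05 over all tested probes. The smallest adjusted p was that of Itih3, an inter-alpha-trypsin inhibitor heavy chain, with -0.76 ± 0.22 (adjusted p = 0.0603). With the 3 libraries left out, Cfb was lower in MF-NIA by -0.55 ± 0.15 (adjusted p = 0.0233) and Itih3 by -0.76 ± 0.22 (adjusted p = 0.0310), and F13b, a subunit of the fibrin-linking factor XIII, was higher by 0.34 ± 0.11 (adjusted p = 0.0465), beside 6.45% of all. Array weights called 9 member probes there, and the share of all probes called in that fit is not given here. MF-WIS against AL-WIS had 7 with an unadjusted p under 0.05, AL-WIS against AL-NIA 3 and MF-WIS against MF-NIA 2. Of the 10659 tested probes 1631, 1348 and 1126 in turn had such a p, and 0.0375%, 0.0469% and 0% were called. In MF-WIS against AL-WIS the 3 F11 probes had differences of 0.49 ± 0.15, 0.57 ± 0.23 and 0.62 ± 0.21, with the smallest adjusted p at 0.171. Quantile normalization, neqc and median centring of the signals also called 0 member probes in the 2 of these that they cover, MF-WIS against AL-WIS and MF-WIS against MF-NIA.

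Other genes of the same pathways give the setting of the CR-NIA and MF-NIA livers. Over all tested probes, 5.57% were called higher and 13.3% lower on the scores. The shares were 10.3% and 9.38% on the quantile-normalized and 1.96% and 21.1% on the median-centred signals. Without the 3 libraries, 32.1% of all probes were called on the scores. Of 20 other complement probes 0 were higher and 5 lower in CR-NIA, with a median of -0.30 that stayed negative on the quantile-normalized (-0.30, 4 lower) and centred signals (-0.48, 8 lower). Both probes of Cr1l, the membrane regulator Crry that limits C3 activation on mouse cells, were lower by -0.94 ± 0.12 and -1.13 ± 0.15 (limma's adjusted p = 6.68e-06 and 9.34e-06), and C1s1, a protease of the classical pathway, by -0.82 ± 0.21 (adjusted p = 0.00576). All 3 were also lower on both scalings of the signals. Of these genes 4 are also in the macrophage list, of whose 22 probes limma called 0 and 1 had an unadjusted p under 0.05, with a median of -0.30. Of the other complement probes 1 was higher and 9 lower without the 3 libraries, and 6 of 22 macrophage, 7 of 18 stellate cell and 5 of 18 endothelial probes were then lower (1 endothelial probe was higher), with medians of -0.39, -0.24 and -0.16. Of 20 hepatocyte probes 3 were higher and 0 lower on the scores (median 0.15), and 5 and 0 without the 3 libraries. On the quantile-normalized signals 1 hepatocyte probe was higher and 3 lower (median -0.075). The part of these cells in the complement differences was not tested.

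Of 36 other coagulation probes 2 were higher and 5 lower, beside 5.57% and 13.3% of all tested probes. On the quantile-normalized signals 0 were higher and 4 lower, beside 10.3% and 9.38% of all. Habp2, a serine protease that can activate factor VII, was lower by -0.94 ± 0.21 (limma's adjusted p = 0.00151) and Tfpi, the inhibitor of the factor VII complex, by -0.59 ± 0.17 (adjusted p = 0.0105), both also on the signals. Kng1, the kininogen that carries factor XI, was higher by 0.65 ± 0.18 on the scores (adjusted p = 0.00963) but had 0.21 ± 0.09 on the quantile-normalized signals (adjusted p = 0.120). Of 55 other plasma protein probes 16 were higher and 1 lower on the scores, with a median of 0.31, beside the same shares of all probes. On the quantile-normalized signals the median was -0.02, with 3 higher and 6 lower. Selenop, which carries selenium, had 0.54 ± 0.13 on the scores and 0.20 ± 0.08 on the signals, and Azgp1 0.64 ± 0.18 and 0.01 ± 0.09.

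Among 20 probes for transcription factors of hepatocyte genes, Stat3, which carries the interleukin-6 signal to acute-phase genes, was lower by -0.67 ± 0.18 (limma's adjusted p = 0.00773) and Foxa3 higher by 0.67 ± 0.19 (adjusted p = 0.00976), with -0.62 ± 0.19 and 0.52 ± 0.16 on the quantile-normalized signals. Prox1 was lower by -0.46 ± 0.15 on the scores (adjusted p = 0.0253) and had -0.40 ± 0.15 on the signals (adjusted p = 0.0666). Of 44 probes for the secretory pathway 5 were higher and 3 lower, beside 5.57% and 13.3% of all tested probes (18.8% in either direction). The called secretory probes included Ssr4, a subunit of the translocon-associated complex, at 0.61 ± 0.12 (adjusted p = 0.000611). Sec23a, a coat protein of vesicles leaving the endoplasmic reticulum, was another, at -0.89 ± 0.19 (adjusted p = 0.00103).

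In CR-WIS against AL-WIS 1 of the 20 other complement probes was higher and 5 lower, and 1 and 2 without the 3 libraries. Over all tested probes 6.29% were higher and 6.76% lower in this comparison, and 8.81% were called without the 3 libraries. C1rl was higher by 0.69 ± 0.16, and Vsig4, a complement receptor of liver macrophages, lower by -1.58 ± 0.44 (limma's adjusted p = 0.00738 and 0.0182). Of 36 other coagulation probes 3 were higher and 3 lower, and 0 and 1 without the 3 libraries. Vkorc1, the reductase that recycles vitamin K for the clotting factors, had 0.42 ± 0.13 (adjusted p = 0.0293) and 0.24 ± 0.11 without them (adjusted p = 0.150). Of 55 other plasma protein probes 1 was higher, Rbp4, at 0.48 ± 0.17 (adjusted p = 0.0465), which had 0.21 ± 0.11 without the 3 libraries (adjusted p = 0.220) and 0.37 ± 0.15 on the quantile-normalized signals (adjusted p = 0.0846). Of 20 transcription factor probes 7 were higher and 1 lower. Dbp and Tef, factors with a daily rhythm in mouse liver that bind the D-box, were higher by 2.81 ± 0.71 and 1.63 ± 0.34 (adjusted p = 0.0103 and 0.00400), and by 2.42 and 1.41 without the 3 libraries.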

How the data were processed

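Per the labels' protocols, liver RNA was amplified into biotin-labelled copies and hybridised to Illumina arrays. The value table deposited by the authors holds a score per probe and array, and how it was computed is not given in the labels or headers used. The signal table deposited by the authors gives each probe an intensity on a linear scale and, per the file headers, a detection p-value. The submitters' processing notes name GenomeStudio 2011.1. Its header gives a group for each column but not the sample, so 6 AL-NIA columns, which outnumber the 5 samples of that label, were not used.

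Groups came from the labels. Scores times 1.51 were fitted with limma 3.58.1 (R 4.3.3), 1 mean per group over 40 arrays, in 9 comparisons and 2 interactions, with Benjamini-Hochberg adjustment at 0.05 over 10659 probes with 1 symbol (detection p under 0.01 on at least 4 of 34 columns). Because the deposited scores divide by each array's SD, they can shift bright probes between groups. The log2 signals were therefore fitted too, after quantile normalization or centring on each array's median. The code was tested on simulated data.

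The members and lists were chosen with earlier results of these data known. The text names up to 10 called member probes with the smallest p for CR-NIA against MF-NIA, up to 6 for other comparisons, the other probes of those genes, Alb, C3, F2 and Fgb, and up to 3 called probes per pathway list; further members are given to account for the list, chosen after their values were seen. Alternatives were neqc (limma's background correction with quantile normalization), other filters, the brightest probe per gene, array weights, only the groups compared, a replicate block and each library left out.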

Additional observations from a re-analysis of the deposited data

Results flagged for a closer look

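Groups were checked for the called member probes named by the rule above and for the median over all member probes. In 7 of 78 checks, the highest or lowest library lay farther from the others than Dixon's critical value allows. Chance gives this in about 1 of 20 independent checks. Of the 7, 6 were low values of AL-WIS replicate 1, so that these checks are not independent. That library stood at 0.091 for F7 against 1.07 to 1.36 in the other AL-WIS livers, at 1.24 for Proc (ILMN_3109675) against 2.61 to 3.03, and at 3.28 for Proc (ILMN_2653056) against 4.79 to 5.33. It stood at -0.27 for Masp2 (ILMN_3027989) against 0.66 to 0.83, at 2.34 for Plg (ILMN_2589024) against 3.59 to 4.23, and at 1.01 for F12 (ILMN_2605656) against 1.71 to 2.04. The same library had the macrophage marker mean of 3.37 and the hepatocyte mean of -1.73 given above. The other value was that of MF-WIS replicate 4 for Masp2 (ILMN_3027989), -0.30 against 1.10 to 1.39.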

How the results depend on the processing

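No result changed direction past the threshold under any alternative run. Except where the share of all probes called was given above, the counts below stand without it. They then do not tell a move of the members from a move of all probes. Counts of called member probes moved as follows; main counts are 15 for CR-NIA against MF-NIA, 1 for CR-WIS against MF-WIS, 2 for CR-NIA against AL-NIA, 3 for CR-WIS against AL-WIS, 0 for MF-NIA against AL-NIA and 1 for CR-WIS against CR-NIA. Array weights gave 29 for CR-NIA against MF-NIA, 6 for CR-WIS against MF-WIS, 11 for CR-NIA against AL-NIA, 9 for MF-NIA against AL-NIA, 11 for CR-WIS against CR-NIA, and 2 in the interaction of diet with CR against AL. Neqc gave 9 for CR-NIA against MF-NIA and 2 for CR-WIS against CR-NIA, quantile-normalized signals 4 for the latter, and quantile-normalized scores 7 for CR-NIA against MF-NIA, 4 for CR-NIA against AL-NIA and 2 for CR-WIS against CR-NIA. The brightest probe per gene gave 7 for CR-NIA against MF-NIA, 1 for CR-NIA against AL-NIA and 0 for CR-WIS against CR-NIA. Fits of only the groups compared gave 6 for CR-NIA against AL-NIA, 0 for CR-WIS against AL-WIS, 2 for MF-NIA against AL-NIA and 8 for CR-WIS against CR-NIA. The 1 call of CR-WIS against MF-WIS became 0 under all of these but array weights, and with no filter, detection on all columns, median centring or the replicate block. Leaving out the 3 libraries, chosen after seeing the data, gave 26, 2, 15, 1, 3 and 10 in the order above, and 2 in that interaction.

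Leaving out 1 library at a time gave 7 to 22, 0 to 2, 2 to 9, 0 to 4, 0 to 2 and 1 to 5 in the same order, and 8 to 11 for CR-NIA against MF-NIA on quantile-normalized signals (10 with all columns). The lowest and highest for CR-NIA against MF-NIA were without MF-NIA replicate 3 and without AL-WIS replicate 1. The median member difference for that pair moved from 0.18 to -0.09 with median-centred signals. The replicate block, fitted though the numbers do not pair the samples (79 same-numbered pairs correlated at -0.58 to 0.52, median -0.03, 24 over 0.1), gave 12 for CR-NIA against MF-NIA and 0 for CR-WIS against AL-WIS. The causes of these moves were not tested. Dim probes such as those of Alb, F11 and Masp2 lie near background, which limits their folds, and AL-NIA could be examined on the scores alone.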
